A study of Mus musculus with 5 samples.

Results

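The lectin Clec14a and 9 other genes of the endothelial cell surface, Cd93, Thbd, Mmrn2, Pecam1, Cdh5, Tek, Tie1, Emcn and Cldn5, are described here, 10 of the 23279 genes read on the arrays. They were chosen by symbol with the KO against Control values of these arrays already known, in which Clec14a had one of the largest differences relative to its spread. The probe set of each was chosen by its mean brightness over the arrays, and each gene had only 1. Because the same comparison stood behind the choice, the values of these genes are a description and carry no test.

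The samples were mouse embryonic hearts at E10.5: 2 arrays with the genotype KO and 3 with the genotype Control. None was treated. The replicate numbers used here were given in the order of the records within each genotype; they are not in the labels and pair no samples. The title of the series names LRRFIP2; neither the allele and how it was made, nor the strain, nor the genotype behind the word Control, nor the number of hearts in a sample is stated in the labels. P-values therefore measure the spread between these 5 samples, which may be technical. Lrrfip2 itself stood at 6.36 and 6.22 in KO replicates 1 and 2, against 7.33, 8.07 and 8.08 in Control replicates 1 to 3. Levels are log2 RMA values that the authors deposited, a scale on which 1 unit is a doubling, and differences are KO minus Control. A level is compared only within a gene, since probe sets differ in brightness.

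Endothelial cells line the vessels and, as endocardium, the inside of the heart tube. Clec14a, Cd93 and Thbd (thrombomodulin) belong to the group XIV C-type lectins, transmembrane proteins with a lectin-like domain at the outer end; Mmrn2 (multimerin 2) is an extracellular matrix protein of vessels that binds Clec14a and Cd93, and also their relative Cd248. Cdh5 (VE-cadherin), Pecam1 and Cldn5 (claudin 5) sit at endothelial junctions. Tek (Tie2) and Tie1 are receptor tyrosine kinases, Tek being the receptor for angiopoietins, and Emcn (endomucin) is a sialomucin of capillaries, veins and endocardium. All of these are known chiefly from endothelium, although Pecam1, Cd93 and Thbd are also found on some blood cells.

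The markers of endothelium and endocardium used as a check all lay above the dimness limit of 4.44 on every array. There were 13 endothelial ones, among them Kdr, Eng and Icam2, and 5 endocardial ones, among them Nfatc1 and Npr3. The limit is the 40th percentile of the mean levels of all genes, a rank and not a call of detection. The 13967 genes with a mean above the limit were tested. Of the 10 genes, 9 passed and Cldn5 did not. In whole hearts, more endothelial cells and more RNA per endothelial cell cannot be told apart.

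RefSeq promoter sequences (GRCm38.p6, 250 bases before to 50 after the start of the gene) were on hand for 5 of the 10 genes, Clec14a, Emcn, Tie1, Tek and Cldn5. The first 3 are printed because they stand for 3 patterns described below: high on both KO arrays, high on 1 KO array, and level. They lie at chr12:58269209-58269508 (minus strand), chr3:137340828-137341127 (plus strand) and chr4:118489800-118490099 (minus strand), and each is read along its gene. Capitals mark matches, on either strand, to the hypoxia response cores ACGTG and GCGTG, the ETS core AGGAAG, the forkhead core TGTTTAC and the KLF core CCACCC.
Clec14a: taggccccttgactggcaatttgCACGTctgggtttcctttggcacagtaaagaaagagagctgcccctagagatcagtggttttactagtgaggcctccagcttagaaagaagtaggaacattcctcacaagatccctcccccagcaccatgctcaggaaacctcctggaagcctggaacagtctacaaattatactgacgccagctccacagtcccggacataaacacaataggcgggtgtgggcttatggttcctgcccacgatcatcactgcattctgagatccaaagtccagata
Emcn: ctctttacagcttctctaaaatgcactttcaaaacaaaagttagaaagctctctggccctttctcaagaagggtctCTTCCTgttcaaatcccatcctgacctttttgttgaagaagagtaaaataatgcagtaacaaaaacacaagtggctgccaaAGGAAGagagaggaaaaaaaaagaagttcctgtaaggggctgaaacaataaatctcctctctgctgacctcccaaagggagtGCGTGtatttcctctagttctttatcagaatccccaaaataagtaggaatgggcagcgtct
Tie1: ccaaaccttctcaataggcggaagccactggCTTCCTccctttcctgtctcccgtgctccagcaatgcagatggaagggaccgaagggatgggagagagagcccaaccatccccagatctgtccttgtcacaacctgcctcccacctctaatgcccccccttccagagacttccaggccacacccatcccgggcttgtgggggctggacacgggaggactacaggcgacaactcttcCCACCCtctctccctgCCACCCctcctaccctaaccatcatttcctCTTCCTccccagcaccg

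In the Clec14a promoter the only match was ACGTG, on the reverse strand, with its first base 227 bases before the start. The ETS core was searched only as AGGAAG. The shorter GGAA within it, which the Clec14a promoter also holds, was not searched or marked. ACGTG or its complement was present in 19.6% of the 32851 promoters of the same length. The Emcn promoter held GCGTG 11 bases before the start, a core found in 32.4% of promoters, and the ETS core at 93 and 174 bases before it, which 35.4% of promoters hold. In the Tie1 promoter the ETS core was present 219 bases before and 34 bases after the start, and the KLF core, found in 31.5% of promoters, 13 bases before and 4 bases after. The Tek and Cldn5 promoters held none of the 5 motifs, and the forkhead core, present in 3.65% of promoters, was in none of the 5 promoters. Such short motifs occur in a large share of promoters, and a match says nothing of binding.

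Clec14a, which takes part in endothelial migration and tube formation, was the member with the widest separation between the groups. Its level was 5.48 and 5.53 in KO hearts, and 4.79, 4.76 and 4.64 in Control hearts. The Control levels lay not far above the dimness limit of 4.44, and the mean over the arrays was at percentile 49 of all genes. Both KO arrays were high, and the lower of them lay 0.70 above the highest Control array. The means were 5.51 ± 0.03 (SD, n = 2) in KO and 4.73 ± 0.08 (SD, n = 3) in Control hearts, a difference of 0.78 ± 0.06 (SE of the limma fit), or 1.71-fold. The 2 KO arrays differed from each other by 0.05, against a median of 0.15 over the tested genes.

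Its relatives did not show this pattern. Cd93, a lectin with roles in angiogenesis and cell adhesion, was at 7.30 and 6.78 in KO hearts and at 6.78, 6.78 and 6.76 in Control hearts. Only KO replicate 1 was high: KO replicate 2 exceeded the highest Control array by no more than 1.9e-04, and the difference of 0.27 ± 0.17 (SE) came down to 0.01 without KO replicate 1. Thbd, the thrombin receptor that turns thrombin towards activation of protein C, was at 5.36 and 5.45 in KO hearts and at 5.67, 5.45 and 5.36 in Control hearts. Both KO arrays lay within the Control range, with a difference of -0.09 ± 0.11 (SE). Cd93 and Thbd are next to each other on chromosome 2 in the RefSeq gene table, with 0 annotated genes between them, and KO replicate 1 was the higher KO array for Cd93 and the lower one for Thbd.

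Mmrn2, the shared matrix ligand, overlapped between the groups. It was at 7.87 and 7.73 in KO hearts, and at 7.79, 7.84 and 7.28 in Control hearts. Control replicate 3 alone was low, and without it the difference of 0.17 ± 0.20 (SE) was -0.01. Cd248, the group member of fibroblasts and pericytes, was at 7.66 and 8.78 in KO hearts and at 7.97, 7.97 and 7.87 in Control hearts, so the KO arrays lay on either side of the Controls.

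Pecam1, the adhesion molecule CD31, and Emcn were high on KO replicate 1 and close to the Controls on KO replicate 2. Pecam1 was at 9.34 and 8.62 in KO hearts, against 8.58, 8.51 and 8.29 in Control hearts. The groups were separated by 0.04, and the difference was 0.52 ± 0.25 (SE). Emcn was at 9.38 and 8.50 in KO hearts, and at 8.50, 8.46 and 8.27 in Control hearts. KO replicate 2 and Control replicate 1 held the same Emcn value, so the groups touched, and the difference was 0.53 ± 0.30 (SE). The KO arrays stood 0.72 apart for Pecam1 and 0.88 apart for Emcn, wider than in 94.9% and 97.1% of the tested genes. Without KO replicate 1 the differences were 0.16 for Pecam1 and 0.09 for Emcn, and without KO replicate 2 they were 0.88 and 0.97.

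Cdh5, the cadherin of endothelial adherens junctions, was slightly higher on both KO arrays. It was at 9.82 and 9.74 in KO hearts and at 9.67, 9.64 and 9.43 in Control hearts. The groups did not overlap, with a gap of 0.07, and the difference was 0.20 ± 0.09 (SE), or 1.15-fold. Cldn5, a tight junction claudin, was at 4.30 and 4.79 in KO hearts and at 4.30, 4.17 and 4.20 in Control hearts. Here KO replicate 2 was the high array, KO replicate 1 equalled Control replicate 1, and only KO replicate 2 passed the limit of 4.44.

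The receptor kinases Tek and Tie1 were not higher in KO hearts. Tek was at 8.39 and 8.05 in KO hearts, against 8.60, 8.34 and 8.34 in Control hearts. KO replicate 1 lay within the Control range and KO replicate 2 below it, with a difference of -0.20 ± 0.15 (SE). Tie1 was at 7.19 on both KO arrays, and at 7.40, 7.19 and 6.99 in Control hearts. The KO arrays thus matched Control replicate 2, and the difference was -0.00394 ± 0.14 (SE).

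**Figure D1:**
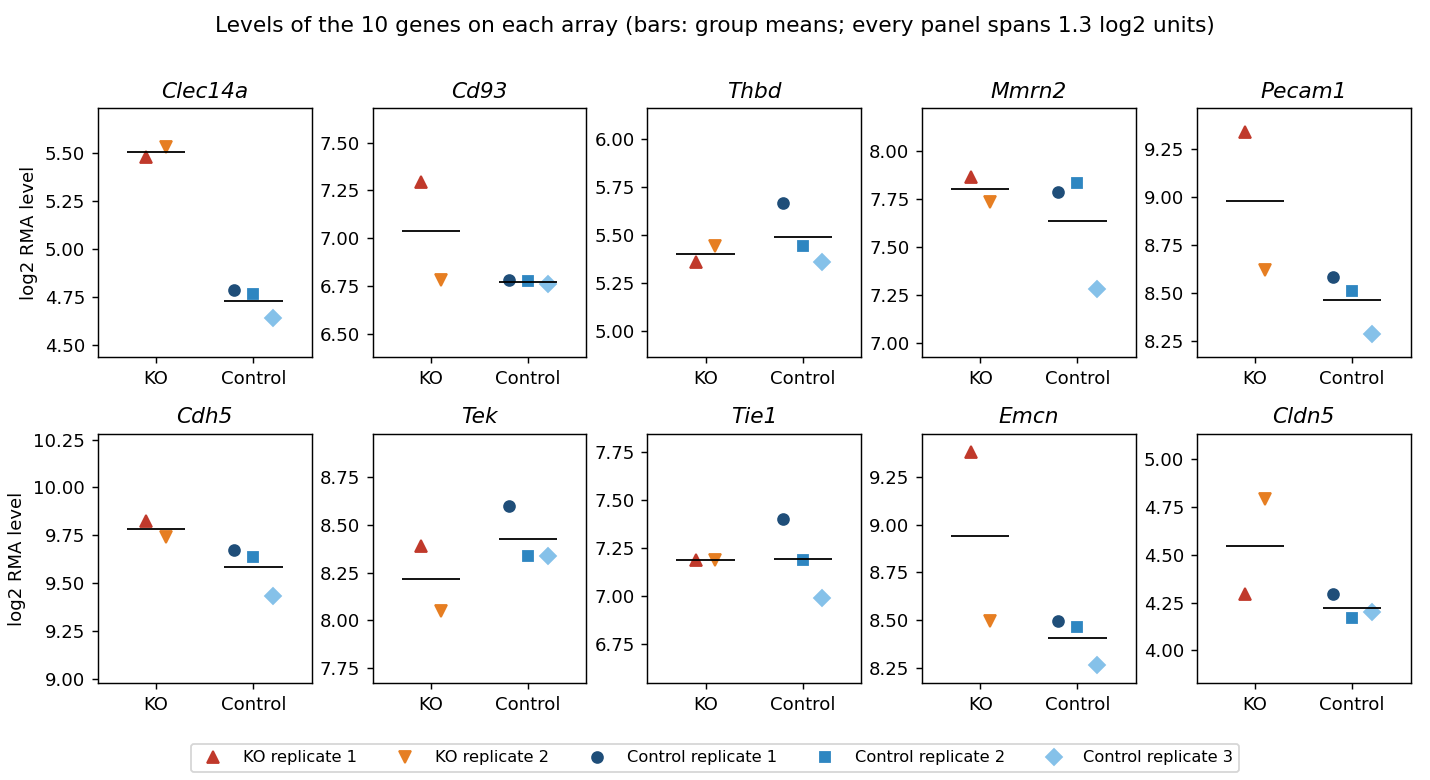
Log2 RMA level of each of the 10 genes on the 2 KO arrays and the 3 Control arrays, 1 panel a gene, with short bars for the group means. Clec14a is high on both KO arrays, Cd93, Pecam1 and Emcn on KO replicate 1 and Cldn5 on KO replicate 2, while Tie1, Thbd and Tek overlap the Controls.

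Among the 9 tested genes, 6 had a positive and 3 a negative difference. Their median was 0.20, beside -0.02 over all genes tested. The groups did not overlap for 4 of them, Clec14a, Cd93, Pecam1 and Cdh5, all with KO higher. Over all genes tested, the share with no overlap was 8.18% with KO higher and 13.1% with KO lower. Since the comparison was behind the choice of the genes, these shares are given as the background only. The median deviation of the 9 genes from their Control means was 0.24 on KO replicate 1 and 0.09 on KO replicate 2, against 0.12, 0.03 and -0.14 on the Controls. KO replicate 2 thus lay within the Control range. The deposited values hold many ties: 54.8% of the tested genes share a value between 2 or more arrays, as do 5 of the 10 genes, namely Thbd, Tek, Tie1, Emcn and Cldn5.

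Many genes of the macrophage, platelet and blood progenitor lists were highest on KO replicate 1, on which Pecam1, Emcn and Cd93 were also high. Of the erythroid list, 0 of 10 were highest there. Of the macrophage and myeloid list, 11 of 17 genes read were higher on KO replicate 1 than on every other array and 1 of 17 on KO replicate 2. Its summed level on the log2 scale was 9.89 and 9.14 on the KO arrays, against 9.12 to 9.23 on the Controls. Such a sum adds unlogged levels over a list, so the brightest probe sets weigh most, and it is no measure of cell number. Of the macrophage list, Tyrobp, a signalling adaptor of myeloid cells, had the largest difference among the genes tested. It was at 7.65 and 5.09 in KO hearts, and at 4.85 to 5.09 in Control hearts. Not all of the list went this way. C1qa was lower on KO replicate 1, at 4.85, than on every other array, and both KO arrays lay below the Controls. Cd68 and C1qb lay within the Control range on both KO arrays. Ptprc, Adgre1, Cd14 and Itgam were under the limit on all arrays. Of the platelet and megakaryocyte list, 6 of 11 were highest on KO replicate 1 and 0 on KO replicate 2, with a summed level of 10.15 and 9.55 on the KO arrays and 9.44 to 9.87 on the Controls, and only Selp was under the limit on all arrays. Of the blood progenitor list, 5 of 9 were highest on KO replicate 1 and 1 on KO replicate 2, with sums of 9.38 and 8.85 on the KO arrays and 8.60 to 8.84 on the Controls; Gfi1, Ptprc and Cd48 were under the limit throughout. On KO replicate 2, where Clec14a stood at 5.53, the macrophage and platelet sums lay within the Control range and the progenitor sum just above it. A high KO replicate 1 was not particular to these lists. Over all tested genes, KO replicate 1 was above every Control for 26.6% and KO replicate 2 for 21.6%. These shares do not ask whether the other KO array was lower, as the list counts do, and cover tested genes only. The share of all genes highest on KO replicate 1 was not computed, so the list counts have no like background. Highest on KO replicate 1 were also 18 of 35 other endothelial markers, 7 of 17 cardiomyocyte genes and 14 of 16 hypoxia targets, but 0 of 10 cushion mesenchyme genes. The part of these cells in the Pecam1, Emcn, Cd93 and Clec14a values was not tested.

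KO replicate 2, the array with the higher Cldn5, carried liver and gut endoderm genes, whose summed level was 13.09 there, against 8.60 on KO replicate 1 and 8.62 to 8.68 on the Controls. All 16 endoderm genes were higher on KO replicate 2 than on every other array, and none was under the limit on all arrays. Genes of lymphatic and liver sinusoid endothelium were mixed: of 9 read, 5 were highest on KO replicate 2 and 2 on KO replicate 1, with no gene under the limit on all arrays and sums of 9.36 and 10.09 on the KO arrays and 9.13 to 9.26 on the Controls. Oit3, a gene of liver sinusoids, was at 5.38 and 7.33 in KO hearts and at 4.91, 4.61 and 4.90 in Control hearts, highest on KO replicate 2. Lyve1, a hyaluronan receptor of lymphatic and sinusoidal endothelium, was at 7.09 and 6.38 in KO hearts and at 5.97, 5.82 and 5.91 in Control hearts, highest on KO replicate 1. Clec4g and Fcgr2b, on the same list, were lower on KO replicate 2 than on every other array. On KO replicate 1, where Clec14a was 0.75 above the Control mean, the endoderm sum lay just below the Control range and the lymphatic and sinusoid sum above it. The summed level of erythroid genes was 13.40 and 13.59 on the KO arrays, and 13.79, 13.33 and 14.12 on Control replicates 1 to 3. It was highest on Control replicate 3, the lowest Control for 8 of the 10 genes. All 10 tested erythroid genes were lower in KO hearts, with a median difference of -0.49 that was -0.07 without Control replicate 3, and none was under the limit on all arrays. The part of these tissues in the values of the 10 genes was not tested.

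Other endothelial markers lay on balance above the Controls, and 20 of 33 were higher on KO replicate 1 than on KO replicate 2. Of 35 listed, 33 were tested, 21 with a positive and 12 with a negative difference and a median of 0.18, which was 0.09 without KO replicate 1. Acvrl1 and Myct1, both higher, had Control means under the limit and were tested only because of their KO levels; without them 19 of 31 were higher. At an unadjusted p under 0.05 in limma there were 4 higher, Kdr, Adgrl4, Stab1 and Flt1, and 0 lower; over all genes tested these shares were 3.29% higher and 5.49% lower. The groups of the 33 did not overlap for 13 with KO higher and 2 with KO lower, read against the 8.18% and 13.1% above. Without Acvrl1 and Myct1 these counts were 11 and 2 of 31, and the median was 0.17. The number passing an adjusted p of 0.05 over all genes was 0 of 33, as it was 0 of 13967 overall (0%), while 1227 genes were under an unadjusted 0.05.

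Kdr and Flt1, the main receptors for vascular endothelial growth factor, were at 8.44 and 8.23 and at 7.94 and 7.29 on the KO arrays. In Control hearts Kdr was at 7.94, 7.72 and 7.57 and Flt1 at 7.05, 7.02 and 6.87. Both KO arrays were above every Control for each receptor. The differences were 0.60 ± 0.14 (SE, adjusted p = 0.434 in limma) for Kdr and 0.64 ± 0.22 (SE, adjusted p = 0.552) for Flt1. Adgrl4, an endothelial adhesion G protein-coupled receptor, differed by 0.68 ± 0.22 (SE, adjusted p = 0.541 in limma) and the scavenger receptor Stab1 by 0.40 ± 0.14 (SE, adjusted p = 0.552).

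Set against the median of these markers, Clec14a deviated more on both KO arrays. Single markers deviated further on 1 KO array. On KO replicate 1 these were Myct1 (1.71), Adgrf5 (1.15), Vwf (1.07), Flt1 (0.96), Adgrl4 (0.87) and Icam2 (0.78), and on KO replicate 2 Aplnr (1.15). The median deviation of the 33 markers was 0.24 on KO replicate 1 and 0.09 on KO replicate 2, against 0.07, 0.00 and -0.07 on the Controls. Clec14a exceeded that median by 0.51 and 0.71 on the KO arrays, and lay within -0.02 to 0.03 of it on the Controls. The lower of its 2 KO deviations, 0.75, was reached on both KO arrays by 0 of the 33 markers, the nearest being Kdr at 0.49, and by 71 other tested genes, or 0.508% of them. One of these 71 was Hhex, a homeobox factor of endothelial and endoderm cells on the list of endothelial transcription factors, at 7.01 and 7.03 in KO hearts and 5.61, 5.56 and 5.76 in Control hearts. Its difference of 1.37 ± 0.08 (SE, adjusted p = 0.287 in limma) was larger than that of Clec14a. Kit, of the blood progenitor list, was another. These counts were made after the values were seen and describe the gene for which the list was made.

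The genes whose profile over the 5 arrays was nearest to that of Clec14a were not endothelial markers on the lists used. Nearness was the root mean square distance between the deviations from the Control mean. The deviations were not scaled, so the distance depends mostly on the size of the KO shift, the value behind the choice of Clec14a. A gene with a much smaller shift could not come out near, and the order describes size rather than a shared cause. The nearest was Egln1, the oxygen-sensing prolyl hydroxylase, at a distance of 0.05, with levels of 9.66 and 9.70 in KO hearts and 8.86, 8.91 and 8.72 in Control hearts. Then came the histone demethylase gene Kdm5b at 0.08, Apoe, a lipid carrier, at 0.10, Cmtm8 at 0.10 and Pdk1, the kinase that inhibits pyruvate dehydrogenase, at 0.11. Egln1 and Pdk1 were on the list of hypoxia targets used here, whose 16 tested genes were all higher in KO hearts with a median of 1.29. Among the other tested members the nearest was Pecam1, at 0.30 and place 347 in the order, and the farthest was Tek, at 0.64.

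Genes of known partners of the lectins differed in both directions, with a median close to that of all genes tested. Of the 13 listed, 11 were tested, 3 with a positive and 8 with a negative difference and a median of -0.03. In limma at an unadjusted p under 0.05, F2r was higher and Emilin2 and Gipc1 lower of the 11, beside 3.29% higher and 5.49% lower over all genes tested, and 0 passed the adjusted threshold. Emilin2, a matrix protein of the same family as Mmrn2, was at 8.71 and 8.64 in KO hearts and at 9.14, 9.18 and 9.18 in Control hearts. The groups stood clear of each other, with a difference of -0.49 ± 0.04 (SE, adjusted p = 0.333 in limma). F2r, the thrombin receptor PAR1, differed by 0.28 ± 0.10 (SE, adjusted p = 0.552 in limma) and Gipc1, an adaptor bound by the tail of Cd93, by -0.24 ± 0.09 (SE, adjusted p = 0.559).

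The angiopoietin and Tie pathway also had a median close to that of all genes tested, which does not show that its genes were unchanged. Of its 11 genes, which include Tek and Tie1, 4 had a positive and 7 a negative difference, the median was -0.01, and 0 were under an unadjusted p of 0.05 in limma. Angpt1, the activating ligand of Tek, was at 8.30 on both KO arrays and at 8.39, 8.28 and 8.34 in Control hearts. Angpt2, the context-dependent ligand, was at 5.92 on both KO arrays and at 5.92, 5.92 and 5.85 in Control hearts. Ptprb, the endothelial phosphatase that acts on Tek and Cdh5, was at 7.39 and 6.61 in KO hearts and at 6.97 on all Control arrays, so that here too KO replicate 1 was the higher KO array.

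Genes of junction partners differed by small amounts in both directions. Of 19 tested, 10 had a positive and 9 a negative difference (median 0.02), and in limma 1 was higher and 2 lower at an unadjusted p under 0.05, beside 3.29% and 5.49% over all genes tested. These were Cgn, cingulin of tight junctions (0.39 ± 0.12, SE), Arvcf, a catenin that binds cadherins (-0.18 ± 0.04, SE), and the junctional adhesion molecule Jam2 (-0.17 ± 0.05, SE), with adjusted p of 0.533, 0.453 and 0.482. Of the 10 endocardial markers, 2 had a positive and 8 a negative difference, with a median of -0.22 that was -0.06 without KO replicate 1. The 5 used above as a check were mixed: Nfatc1 -0.35, Plvap -0.22, Cgnl1 -0.04, Npr3 0.27 and Tmem100 0.76. The other genes of the list, Hapln1, Gata4, Gata5, Cdh11 and Foxc1, all had a negative difference. Nfatc1, the transcription factor of endocardium and valve formation, was at 6.69 and 6.47 in KO hearts and at 7.01, 7.01 and 6.76 in Control hearts. Both KO arrays were below the Controls, with a difference of -0.35 ± 0.12 (SE, adjusted p = 0.552 in limma). Tmem100, a membrane protein of endothelium, was at 6.65 and 5.44 in KO hearts and at 5.44, 5.44 and 4.97 in Control hearts, high on KO replicate 1 as Pecam1 and Emcn were.

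**Figure D2:**
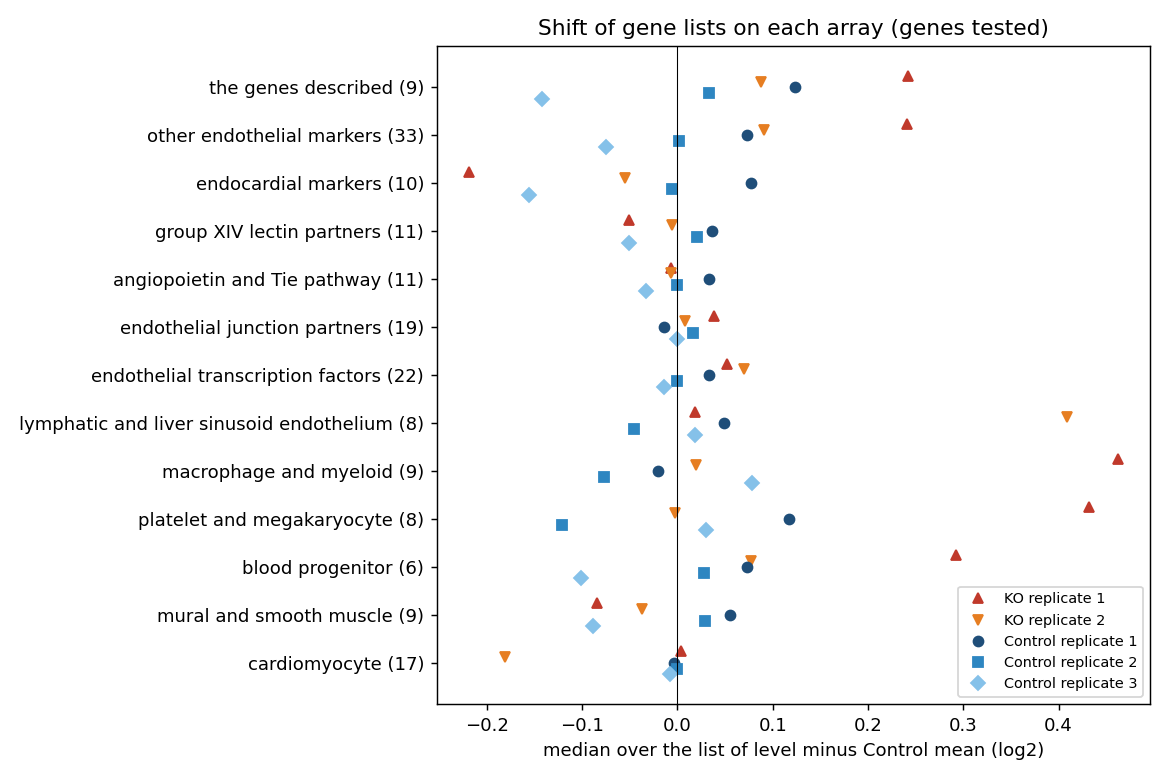
Median over the tested genes of each list of the level minus the Control mean, in log2 units, on the 2 KO and the 3 Control arrays, with the number of genes tested in brackets. KO replicate 1 lies to the right for the genes described (0.24), other endothelial markers (0.24) and the macrophage (0.46) and platelet (0.43) lists, and KO replicate 2 for the lymphatic and liver sinusoid list (0.41).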

How the data were processed

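The authors deposited log2 RMA levels for 24479 probe sets on 5 Affymetrix arrays, made with Affymetrix Expression Console and RMA per the submitters' processing notes; their versions, settings and genome build: not given in the sources used here. Per the labels' protocols, RNA was extracted with Trizol and 20 ng was amplified and biotin-labelled. Without scanner values, signal over background was not assessed; precision is limited by the number of arrays.

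The platform annotation named 23281 probe sets, with symbols updated through Entrez numbers in a RefSeq table (GRCm38.p6). The brightest set of each gene was kept, and genes with a mean under the 40th percentile (4.44) were not tested. KO was compared with Control over the 13967 others in limma 3.58.1 under R 4.3.3 (lmFit, then eBayes; two-sided p with Benjamini-Hochberg adjustment). An exact permutation of 2 against 3 arrays cannot give a p below 0.1. The fit was tested on simulated data. The members, gene lists and motifs were chosen with earlier results of these data known.

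All members are named. Of the lists of pathway genes, up to 5 with the smallest p are named, with Cd248, Angpt1, Angpt2 and Ptprb as known partners. Of other cell types, up to 3 with the largest difference are named. Further genes were named after their values were seen. These were Ptprc, Adgre1, Cd14, Itgam, C1qa, C1qb, Cd68, Selp, Gfi1, Cd48, Acvrl1, Myct1, Adgrf5, Vwf and Aplnr. They were also Clec4g, Fcgr2b, Notch3, Pdgfrb, the other endocardial markers and the transcription factors. The alternatives concerned the filter, the normalization, averaging of probe sets, array weights, the variance prior, the threshold and leaving out each array.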

Additional observations from a re-analysis of the deposited data

How the results depend on the processing

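The median difference of the members, 0.20, and the 4 members without overlap between the groups stayed within the spread of the Control arrays, or within 1.5 times, under the 12 alternatives run. Averaging of probe sets and the variance prior could move neither of them. The median was 0.15 with array weights and 0.23 without the filter, which brings in Cldn5 at 0.32, and it ran between 0.09 and 0.27 with 1 array left out, the lowest without KO replicate 1. The count of members without overlap, added after seeing the data, was 5 after quantile normalization again, where the share over all tested genes was 14.1%, and between 4 and 6 with 1 array left out, where that share was 21.6% without KO replicate 1, 26.6% without KO replicate 2 and 10.9% to 12.1% without 1 Control. The number of genes called in limma was 0 under each alternative that kept all 5 arrays, including a threshold of 0.1, and between 0 and 983 with 1 array left out: 9 without KO replicate 1 and 983 without KO replicate 2. In those fits the lone KO array is assumed to vary like the Controls, and the cause was not tested.

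Of 106 recomputed differences of single members, 100 moved by less than 1 SD of the replicates and 5 changed sign. Many of the 106 could not move. The filter and the variance prior leave a single difference as it is, and averaging does nothing where a gene has 1 probe set. The count of 100 therefore overstates the stability. Clec14a ran between 0.73 and 0.81, but was under the stricter filter at the 60th percentile, as was Thbd. Mmrn2, Thbd and Tie1 had lowest and highest values of -0.01 and 0.27, -0.15 and 4.47e-05, and -0.11 and 0.10. Of 216 recomputed list medians, 39 moved by more than the spread of the Controls and 11 changed sign. No paired analysis was possible, because the sample titles carry numbers of which none is shared between a KO and a Control sample. The replicate numbers used here follow the order of the records.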

Other observations

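Genes of mural cells, the pericytes and smooth muscle around vessels, differed in both directions. Of 9 tested, 3 had a positive and 6 a negative difference (median -0.01). The 3 positive ones were Pdgfrb at 0.39 ± 0.28, Notch3 at 0.28 ± 0.24 and Cd248 at 0.28 ± 0.36 (SE), each with groups that overlapped and with KO replicate 2 as the highest array. Cspg4, the pericyte proteoglycan NG2, was at 6.26 and 6.29 in KO hearts and at 6.82, 6.80 and 6.67 in Control hearts. Both KO arrays were below the Controls, with a difference of -0.49 ± 0.06 (SE, adjusted p = 0.333 in limma over all genes). Abcc9, a subunit of potassium channels in mural and heart muscle cells, was at 8.54 and 7.91 in KO hearts and at 8.83, 8.86 and 8.63 in Control hearts, a difference of -0.55 ± 0.22 (SE).

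Of 22 endothelial transcription factors, 14 had a positive and 8 a negative difference, with a median of 0.15 that was 0.07 without KO replicate 1 and 0.05 without KO replicate 2. At an unadjusted p under 0.05 in limma, Hhex, Sox17, Sox7, Ets1 and Bcl6b were higher and Klf2, a factor induced by blood flow, lower, beside 3.29% higher and 5.49% lower over all genes tested. The number that passed the adjusted threshold was 0. The receptor tyrosine kinase Kit, on the blood progenitor list, was at 8.20 and 7.30 in KO hearts and at 6.66, 6.58 and 5.98 in Control hearts, above the Controls on both KO arrays, with a difference of 1.34 ± 0.38 (SE, adjusted p = 0.494 in limma).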
